A study of Rattus norvegicus with 12 samples.

Results

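The genes described here encode the proteins of the mitochondrial ribosome and of the machinery that brings proteins into mitochondria, measured in the hippocampus of young rats. They were taken as every array probe set whose single gene symbol begins with Mrpl, Mrps, Timm or Tomm. That rule found 109 probe sets of 94 genes among the 15866 probe sets of the array that are not controls. The large ribosomal subunit (Mrpl) had 55 probe sets of 45 genes, the small subunit (Mrps) 27 of 26, the inner membrane and intermembrane space import proteins (Timm) 16 of 14, and the outer membrane import proteins (Tomm) 11 of 9. A symbol is not always a role: Timmdc1, which the prefix brings in, is known in human cells as an assembly factor of respiratory complex I, and Tomm34 is a cytosolic cochaperone. The probe set of Timm23, the import channel subunit, carries several symbols in the annotation and was not counted.

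Mitochondria keep a small genome of their own, and the proteins it encodes, all core parts of the respiratory chain or ATP synthase, are made on a ribosome whose proteins are encoded in the nucleus. Every other mitochondrial protein is made in the cytosol. Many of these proteins are recognised by receptors of the outer membrane complex and pass the Tomm40 pore. They are then handed to the inner membrane translocases or, by small chaperones, across the intermembrane space. Neurons draw heavily on respiration, and seizures raise that demand.

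The study's question was whether seizures injure fewer neurons in rats kept in an enriched environment. All rats were treated at postnatal day 20 with KA, read here as kainic acid, which induces seizures through glutamate receptors, or with phosphate-buffered saline (PBS), the vehicle. The 4 groups of 3 samples were PBS_isolated and KA_isolated, whose rats then lived alone for 10 days, and PBS_enriched and KA_enriched, whose rats shared a large cage in groups of 8 with no duration stated in the labels used here. Each sample pooled 3 to 4 animals. Hence n is a number of pools, and p-values measure the spread between pools. No group lived in ordinary group housing, so an effect of enrichment and one of isolation cannot be told apart, and strain, sex, litter and cage were not given in the sources used here.

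Total RNA of each pool was measured on 1 oligonucleotide array, and the deposited values are probe set signals on a linear scale. Correlations between arrays were 0.971 to 0.989 within groups and 0.975 to 0.990 across groups, so the groups did not stand apart as wholes. KA_enriched replicate 3 had the lowest mean correlation with the other arrays, 0.977, and the largest ratio of 3′ to 5′ signal of the control transcripts, a sign of RNA integrity, with a log2 of 0.856 for beta-actin against 0.361 to 0.639 in the other 11. The summed signal of 6 markers of hippocampal neurons was 4876 to 5812 over all 12 samples, with all 4 groups overlapping, and Snap25, present in all neurons, made up most of it. Camk2a, of excitatory neurons, was 980 to 1274 in PBS_isolated and 754 to 919 in KA_isolated, a log2 difference of -0.39 (SE 0.17, limma adjusted p = 0.999). It was the lower of the 6 markers with the smallest p. In that comparison 3 of the 6 were higher and 3 lower, with a median of -0.00, and 5.62% of all tested probe sets separated downward. The sums of 5 interneuron markers also did not overlap between PBS_isolated, 2406 to 2499.6, and KA_isolated, 2288 to 2393. For 8 microglial markers the sums of PBS_isolated were 722 to 798 and those of KA_isolated 1034 to 1347, while enriched rats had 767 to 1185 after PBS and 678 to 1135 after KA, and Ttr, a choroid plexus marker, was 2719 in PBS_isolated replicate 1 and 87.2 to 683 in the other 11 samples. The part of these differences in the results below was not tested. In pooled tissue, fewer cells of a type and less RNA per cell cannot be told apart.

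All 94 genes were matched in the RefSeq gene table of assembly GRCr8, on 21 chromosomes, with at most 15 on one. Mrpl46 and Mrps11 formed the only pair within 10000 bases of each other. They lie head to head on chromosome 1, Mrpl46 at 142108266 to 142117030 on the minus strand and Mrps11 at 142117045 to 142126644 on the plus strand, with starts 15 bases apart. RefSeq promoter windows, from 250 bases before to 50 bases after a start, were found for 78 of the 94 genes, and for 46 of them the start used is that of the gene in the gene table.

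Nuclear genes for mitochondrial proteins are known for binding sites of NRF1, of ETS family factors such as GABP, and of YY1, so those letters were searched on both strands. The NRF1 core GCGCANGCG was in 17.9% of the 78 windows, against 5.80% of all 33469 RefSeq promoters and 15.2% of the 5819 promoters of genes tested here. The ETS core CCGGAAG was in 33.3% against 8.75% and 19.1%. The YY1 core AAGATGGC was in 20.5% against 3.17% and 6.53%, and at least 1 of these cores was in 45 of 78 windows, or 57.7%, against 15.7% and 34.5%. The Sp1 box GGGCGG was in 52.6%, between the 33.1% of all promoters and the 66.8% of tested genes, and the TATA box TATAAA in 8.97%, against 14.2% and 6.12%. CCAAT was in 44.9% against 37.5% and 38.1%, and the estrogen-related receptor element TCAAGGTCA in 1 window. Median GC content was 56.3% in the 78 windows, 51.7% in all promoters and 62% in those of tested genes. Members and tested genes entered with 1 window each, the first listed for the gene, while all 33469 promoters were counted without that limit. These are counts of letters in fixed windows, and no binding was measured.

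The stretches of 100 bases just before the start of 4 genes described below show each kind of core, in capitals. They are Mrpl17 at chr1:169575700-169575799 and Tomm20 at chr19:71832421-71832520, both on the minus strand, Mrpl23 at chr1:207116830-207116929 on the plus strand, and Tomm40l at chr13:86174122-86174221 on the minus strand, all from RefSeq on GRCr8 and written 5′ to 3′ along the gene's strand.
Mrpl17: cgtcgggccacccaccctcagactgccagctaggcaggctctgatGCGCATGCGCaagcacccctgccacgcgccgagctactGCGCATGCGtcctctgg
Mrpl23: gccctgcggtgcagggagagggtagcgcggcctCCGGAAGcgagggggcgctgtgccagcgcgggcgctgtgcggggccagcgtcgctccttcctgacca
Tomm20: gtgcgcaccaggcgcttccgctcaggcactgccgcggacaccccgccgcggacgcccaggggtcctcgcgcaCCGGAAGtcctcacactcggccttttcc
Tomm40l: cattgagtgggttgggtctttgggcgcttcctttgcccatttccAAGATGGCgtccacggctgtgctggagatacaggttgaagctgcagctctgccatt
The Mrpl17 stretch holds the NRF1 core 3 times, counting overlapping matches on both strands as separate. Mrpl23 and Tomm20 each show 1 ETS core, and Tomm40l shows 1 YY1 core.

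Signals were compared between groups as log2(signal + 17), a scale on which differences of dim probe sets are understated (17 was the 20th percentile of all signals). Tests were limited to the 60% of probe sets whose mean signal across the 12 samples was highest, 9520 in all. Of the 109 probe sets, 102 passed, representing 92 genes (53 Mrpl, 26 Mrps, 13 Timm and 10 Tomm probe sets). The 7 that did not pass were single probe sets of Mrpl37, Mrpl51, Mrps26, Timm8a1 and Tomm40l, genes that had another probe set in the test, and the only probe sets of Timm17b and Timm44. Timm44, which tethers the import motor to the inner membrane, had a mean signal of 14.3, and Timm17b, a channel subunit, 41.2. Signals of different probe sets depend on their probes, and those of single genes are not set against each other here.

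Within a gene the 12 samples lay close together. With 1 probe set for each of the 92 genes, the highest sample was 1.33 times the lowest at the median gene, and 73 genes stayed under 1.5 times. The tightest was Tomm22, the central receptor of the outer membrane complex, at 1.12 times. Only Mrpl14, Mrpl39, Mrps27 and Timm8a1 went over 2 times, and Timm8a1, a small chaperone of the intermembrane space, was the widest at 2.27 times. Its lowest signal was 35.4, in KA_enriched replicate 3, against 78.3 in KA_enriched replicate 2 and 70.4 to 80.4 in the 9 samples of the other groups. The value of KA_enriched replicate 1 is not given here. Tomm22, Mrpl39 and Timm8a1 were picked out after their values were seen. The median residual SD of the 102 probe sets within groups was 0.106 on the log2 scale, against 0.123 for all 9520. The members were also brighter. Their median mean signal was 183 over all 109 probe sets, against 72.4 for all 15866 that are not controls. The SDs were not compared at like signal.

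**Figure D1:**
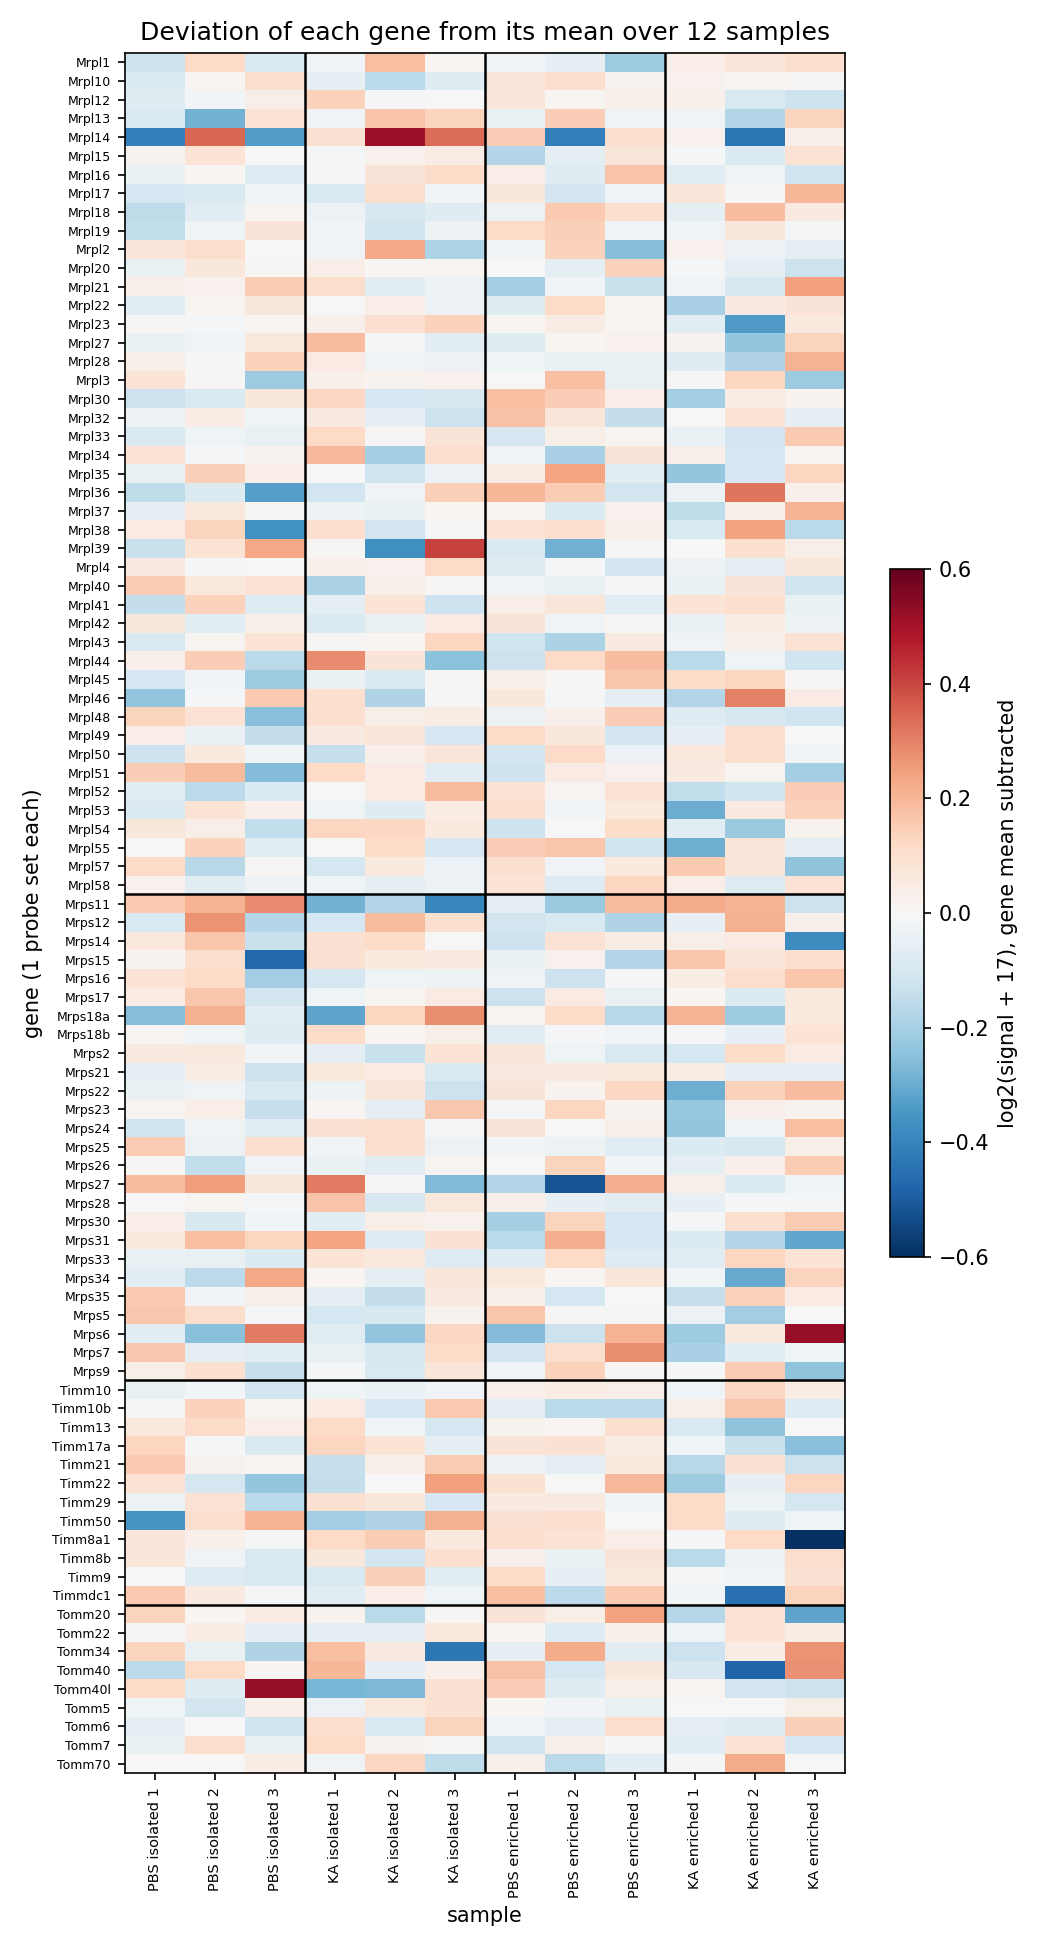
Deviation of each of 92 genes (rows, 1 probe set each, ordered by class and symbol) from its own mean over 12 samples (columns), as log2(signal + 17), with red above and blue below the mean. Horizontal lines part the Mrpl, Mrps, Timm and Tomm genes and vertical lines the 4 groups of 3. Most cells are pale, and the deep cells include Timm8a1 in KA_enriched replicate 3.

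The genes of highest mean signal in each class, named by rule, showed little spread between groups. Tomm70, the receptor for carrier proteins, had a signal of 1127 ± 22.3 in the PBS_isolated pools, 1108 ± 109 in the KA_isolated pools, 1070 ± 71.2 in the PBS_enriched pools and 1177 ± 113 in the KA_enriched pools (mean ± SD, n = 3 pools, as for all values written with ±). Timm8b, a small intermembrane space chaperone, had 988 ± 58.0, 1011 ± 78.9, 1012 ± 41.3 and 977 ± 92.2 in the same order. Mrpl17, a large subunit protein, had 596 ± 20.5, 627 ± 44.4, 617 ± 38.8 and 669 ± 47.1, and Mrps33, a small subunit protein, 321 ± 5.89, 341 ± 21.3, 333 ± 28.5 and 348 ± 24.9. For Mrpl17 all 3 KA_enriched samples, 628 to 721, lay above all 3 PBS_isolated samples, 581 to 619, a pair that differs in treatment and housing at once and was not tested. All other pairs of groups overlapped in these 4 genes.

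For central parts of the machinery the groups overlapped in each comparison within a housing or a treatment. Tomm40, the pore of the outer membrane, had a signal of 139 ± 14.7 in the PBS_isolated pools, 146 ± 14.6 in the KA_isolated pools, 145 ± 15.7 in the PBS_enriched pools and 132 ± 38.6 in the KA_enriched pools. Timm50, the receptor of the inner membrane translocase, had 121 ± 27.1, 117 ± 22.7, 127 ± 5.41 and 121 ± 9.43. Mrpl12, the stalk protein of the large subunit, had 248 ± 9.91, 260 ± 16.7, 259 ± 5.42 and 240 ± 14.6. Outside the genes named for their role, Mrpl53 of the large subunit had group means of 420 to 441 and Mrps17 of the small subunit 310 to 329, and their groups overlapped.

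KA was compared with PBS within each housing and as the mean of both. No mitochondrial ribosome or import probe set passed the test (limma, Benjamini-Hochberg adjusted p under 0.05) in any of these 3 comparisons, where 1, 0 and 1 of all 9520 probe sets did: 0.0105% in isolated rats, 0% in enriched rats and 0.0105% over both. The lowest adjusted p among the 102 was 0.663 in isolated rats, 0.932 in enriched rats and 0.996 over both. At an unadjusted p under 0.05 there were 2 in isolated rats (0 higher and 2 lower after KA; background 4.31%), 3 in enriched rats (0 higher, 3 lower; background 4.98%) and 6 over both housings (1 higher, 5 lower; background 4.31%). With 102 probe sets, these shares were 1.96%, 2.94% and 5.88%.

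The middle of the distribution stayed near 0. The median log2 difference, KA minus PBS, of the 102 was 0.01 in isolated rats, with 56 higher and 46 lower, and -0.02 in enriched rats, with 43 higher and 59 lower. Over all tested probe sets the medians were -0.01 and -0.00. Over both housings they were -0.01 for the 102 and -0.00 for all. Among the 102, 5 had all 3 KA_isolated samples above all 3 PBS_isolated samples (Mrpl23, Mrpl33, Mrpl49, Mrpl52 and Mrps24; background 5.19%) and 3 had them all below (Mrpl40, Mrpl51 and Mrps11; background 5.62%). In enriched rats 4 were all above (Mrpl1, Mrps12, Mrps15 and Mrps16; background 5%) and 6 all below (Mrpl37, Mrpl40, Mrpl48, Mrps21, Timm13 and Timm17a; background 4.62%). Over both housings 0 separated in either direction (background 0.0315% higher and 0.0735% lower). Each name in these lists stands for a single probe set. Mrpl40 separated in isolated rats at -0.15 by a probe set that was -0.01 in enriched rats. In enriched rats it separated at -0.24 by the other, which was -0.10 in isolated rats. Mrpl37 separated by a probe set at -0.14, with the other at 0.04. Mrpl51 separated by a probe set at -0.15, with its others at 0.07 and 0.01. For Mrpl49 and Mrpl52 in isolated rats all tested probe sets were higher.

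Housing was compared within each treatment and as the mean of both. Again 0 of the 102 passed in any of the 3 comparisons (limma, adjusted p under 0.05), where 1, 0 and 2 of all 9520 did: 0.0105% after PBS, 0% after KA and 0.021% over both treatments. The lowest adjusted p was 0.998 after PBS, 0.622 after KA and 0.832 over both. At an unadjusted p under 0.05 there were 2 after PBS (2 higher in enriched rats; background 4.21%), 5 after KA (2 higher, 3 lower; background 7.02%) and 5 over both treatments (4 higher, 1 lower; background 5.64%).

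The median log2 difference, enriched minus isolated, was 0.03 after PBS, with 60 higher and 42 lower, against 0.00 over all tested. After KA it was -0.02, with 46 higher and 56 lower, against 0.00, and over both treatments -0.01 against 0.00. After PBS, 7 of the 102 separated upward (Mrpl23, Mrpl45, Mrpl52, Mrps21, Mrps22, Mrps24 and Timm10; background 5.49%) and 5 downward (Mrpl4, Mrpl21, Mrpl28, Mrpl40 and Timm10b; background 6.11%). After KA, 3 separated upward (Mrpl10, Mrps11 and Mrps16; background 6.28%) and 8 downward (Mrpl14, Mrpl16, Mrpl20, Mrpl37, Mrpl40, Mrpl48, Mrpl54 and Mrps31; background 4.53%). Over both treatments 0 separated (background 0.189% upward and 0.116% downward). Here too each name stands for a single probe set. Mrpl40 separated after PBS at -0.12 by a probe set that was 0.02 after KA. After KA it separated at -0.16 by the other, which was -0.02 after PBS. Mrpl52 separated after PBS by a probe set at 0.16, with the other at -0.18. Mrpl37 separated after KA by a probe set at -0.15, with the other at 0.05. Each housing comparison shares samples with a KA comparison, so their counts are not independent.

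The interaction, how far the KA difference of enriched rats exceeded that of isolated rats, passed for 0 of 102 (limma, 0 of all 9520, 0%), with a lowest adjusted p of 0.857. At an unadjusted p under 0.05 there was 1 higher and 1 lower (background 4.97%). Its median was -0.04 against -0.00 over all tested, with 39 above and 63 below 0. In a test of any difference among the 4 groups, 1 of the 102 had an unadjusted p under 0.05, or 0.980%, against 4.94% of all 9520, and 0 passed after adjustment, against 1 of all.

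**Figure D2:**
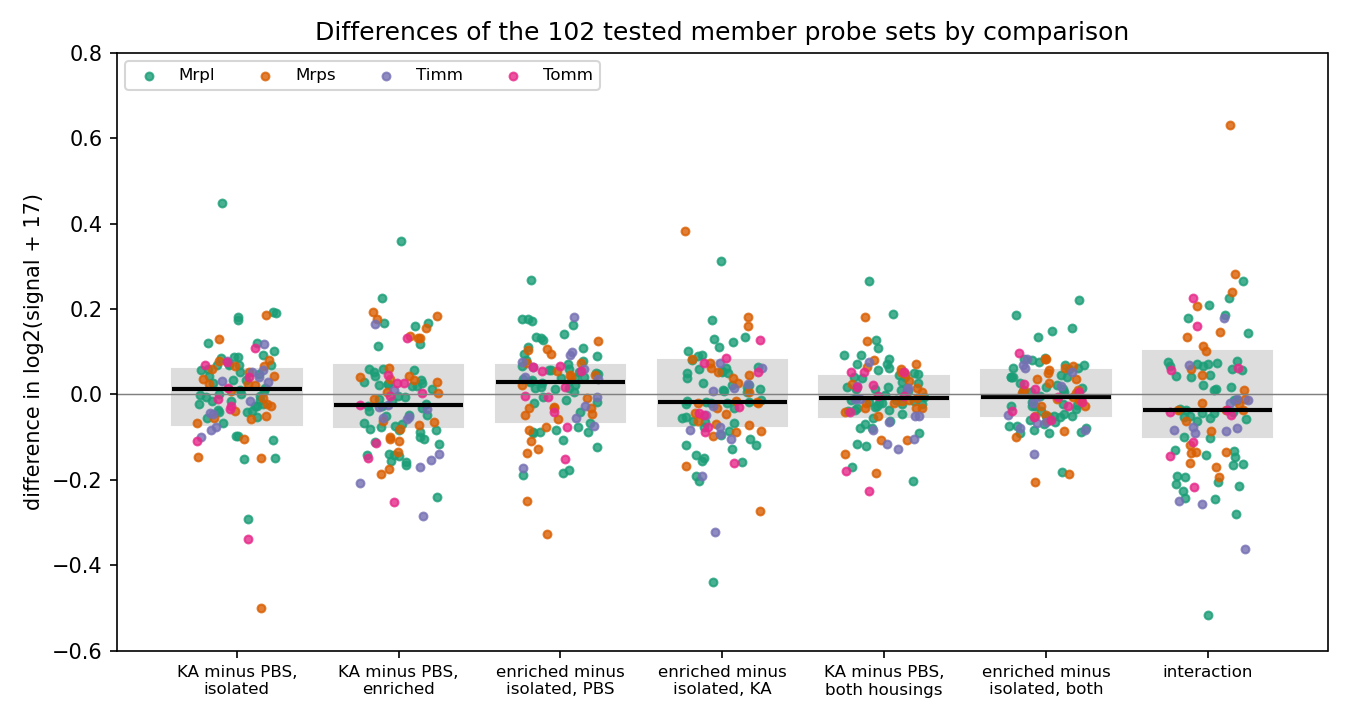
Differences in log2(signal + 17) of the 102 tested probe sets in the 7 comparisons, 1 point for each probe set coloured by class, with black lines for their medians and grey boxes for the middle 50% of all 9520 tested probe sets. The medians lie between -0.04 and 0.03, and the point farthest from 0 is Mrps11, at -0.50 for KA in isolated rats and 0.63 for the interaction.

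What sizes of difference the arrays leave room for can be read from the 95% confidence intervals of the limma model. Between KA_isolated and PBS_isolated, 98 of the 102 had an interval wholly within a 1.5-fold difference in either direction, and between KA_enriched and PBS_enriched 99 did. For housing the counts were 101 after PBS and 97 after KA. Averaged over both housings, or over both treatments, all 102 lay within 1.5-fold. For the interaction 89 did. Over all tested probe sets the shares were 96.4%, 96.0%, 96.6%, 95.3%, 99.3%, 99.3% and 82.7% in the same order. Mrps11, Mrpl14, Mrpl50 and Tomm40l reached beyond 1.5-fold for KA in isolated rats, Mrpl52, Mrps6 and Timm8a1 for KA in enriched rats, Mrps27 for housing after PBS, and Mrps11, Mrpl14, Mrpl50, Mrps6 and Timm8a1 for housing after KA. All of these are bounds on the log2(signal + 17) scale and cover the spread between pools.

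The small ribosomal subunit held the gene nearest to a call. Mrps11 is a protein of the small subunit platform. Its signal was 139, 145 and 153 in the PBS_isolated pools, 97.9, 107 and 89.6 in the KA_isolated pools, 117, 103 and 142 in the PBS_enriched pools, and 146, 144 and 111 in the KA_enriched pools. The 3 KA_isolated samples lay below all PBS_isolated and all KA_enriched samples and overlapped with PBS_enriched. KA minus PBS in isolated rats was -0.50 on the log2 scale (SE 0.12, 95% interval -0.75 to -0.25, limma adjusted p = 0.663), or 1.41-fold lower. Enriched minus isolated after KA was 0.38 (SE 0.12, adjusted p = 0.622), enriched minus isolated after PBS -0.25 (adjusted p = 0.998; -0.15 without PBS_enriched replicate 2), and the interaction 0.63 (SE 0.16, adjusted p = 0.857). Over 21 other settings the adjusted p for KA in isolated rats ranged from 0.118 to 1. Mrpl46, whose start lies 15 bases from that of Mrps11, had 87.5, 105 and 120 in the PBS_isolated pools, 115, 91.7 and 105 in the KA_isolated pools, 112, 105 and 101 in the PBS_enriched pools, and 91.9, 135 and 110 in the KA_enriched pools. All 4 groups of Mrpl46 overlapped, and KA minus PBS in isolated rats was -0.00 (SE 0.13, adjusted p = 0.999). The difference between these neighbours was not tested.

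Other small subunit genes had smaller differences, none past the threshold. Mrps31 had 53.5, 59.8 and 57.1 in the PBS_isolated pools, 63.0, 47.2 and 55.2 in the KA_isolated pools, 43.5, 61.8 and 46.2 in the PBS_enriched pools, and 47.0, 43.1 and 37.6 in the KA_enriched pools. The KA_enriched samples lay below all KA_isolated samples, with a log2 difference of -0.27 (SE 0.11, adjusted p = 0.663). Mrps16 was 242, 253 and 265 in KA_enriched against 216, 229 and 228 in KA_isolated, which did not overlap, with a log2 difference of 0.16 (SE 0.09, adjusted p = 0.742). Mrps5 had log2 differences after KA of -0.15 in isolated and -0.13 in enriched rats, or -0.14 over both housings (SE 0.06, adjusted p = 0.996).
Mrps15 was 0.18 over both housings, and 0.09 without PBS_isolated replicate 3, whose signal was 73.5 against 110 and 117 in its group. Mrps27, which carries pentatricopeptide repeats, was -0.33 for housing after PBS (SE 0.16, adjusted p = 0.998), -0.15 without PBS_enriched replicate 2, whose signal was 28.8, and -0.51 without PBS_enriched replicate 3, at 59.1. Mrps25 was -0.09 for housing over both treatments (SE 0.05).

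Of the large subunit genes, Mrpl45, which in mammals holds the ribosome's exit tunnel near the inner membrane, had 136, 145 and 125 in PBS_isolated and 151, 148 and 167 in PBS_enriched, 2 sets that did not overlap. Its signal was 143, 137 and 148 in KA_isolated and 160, 162 and 148 in KA_enriched. Enriched minus isolated over both treatments was 0.15 on the log2 scale (SE 0.05, adjusted p = 0.832), or 1.11-fold. Mrpl36 was 0.27 after PBS (SE 0.12, adjusted p = 0.998) and 0.19 over both treatments, and Mrpl18 0.14 over both (SE 0.06, adjusted p = 0.852). Mrpl21 was -0.19 after PBS and 0.23 for the interaction, the latter 0.13 without KA_enriched replicate 3. Mrpl23 was -0.20 for housing after KA but -0.09 without KA_enriched replicate 2, whose signal was 171 against 211 and 231. Mrpl16 was -0.21 for the interaction (SE 0.11, adjusted p = 0.951).

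For KA the large subunit genes with the smallest p were also short of the threshold. Mrpl14 had 56.6, 108 and 60.7 in PBS_isolated and 87.4, 123 and 107 in KA_isolated, which overlapped, with a log2 difference of 0.45 (SE 0.21, adjusted p = 0.999). Without PBS_isolated replicate 2 that difference was 0.69. In isolated rats Mrpl13 was 0.19 (SE 0.11), and 0.10 without PBS_isolated replicate 2, and Mrpl40 was -0.15 (SE 0.08), and -0.08 without KA_isolated replicate 1. Mrpl1 was 0.17 in enriched rats, 0.11 there without PBS_enriched replicate 3, and 0.13 over both housings, and Mrpl17 0.09 over both.

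Among the outer membrane proteins, Tomm40l, a paralogue of the pore, had 76.8, 65.0 and 107 in PBS_isolated and 54.5, 54.7 and 74.9 in KA_isolated, which overlapped. The log2 difference was -0.34 (SE 0.14, adjusted p = 0.999), and -0.17 without PBS_isolated replicate 3. Its signal was 78.6, 65.1 and 71.5 in PBS_enriched and 70.2, 62.7 and 62.0 in KA_enriched.

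Tomm20, the receptor for presequences, had 2 probe sets, A and B. Probe set A read 979, 898 and 919 in the PBS_isolated pools, 904, 793 and 894 in the KA_isolated pools, 939, 912 and 1057 in the PBS_enriched pools, and 789, 947 and 711 in the KA_enriched pools. Probe set B read 840, 780 and 814, then 815, 803 and 843, then 786, 817 and 819, then 686, 847 and 859 in the same order. KA minus PBS in enriched rats was -0.25 on the log2 scale in the first (SE 0.10, adjusted p = 0.932) and -0.02 in the second (SE 0.09, adjusted p = 0.987). KA_enriched replicate 3 was the lowest KA_enriched sample in the first and the highest in the second, and without it the first gave -0.16.

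**Figure D3:**
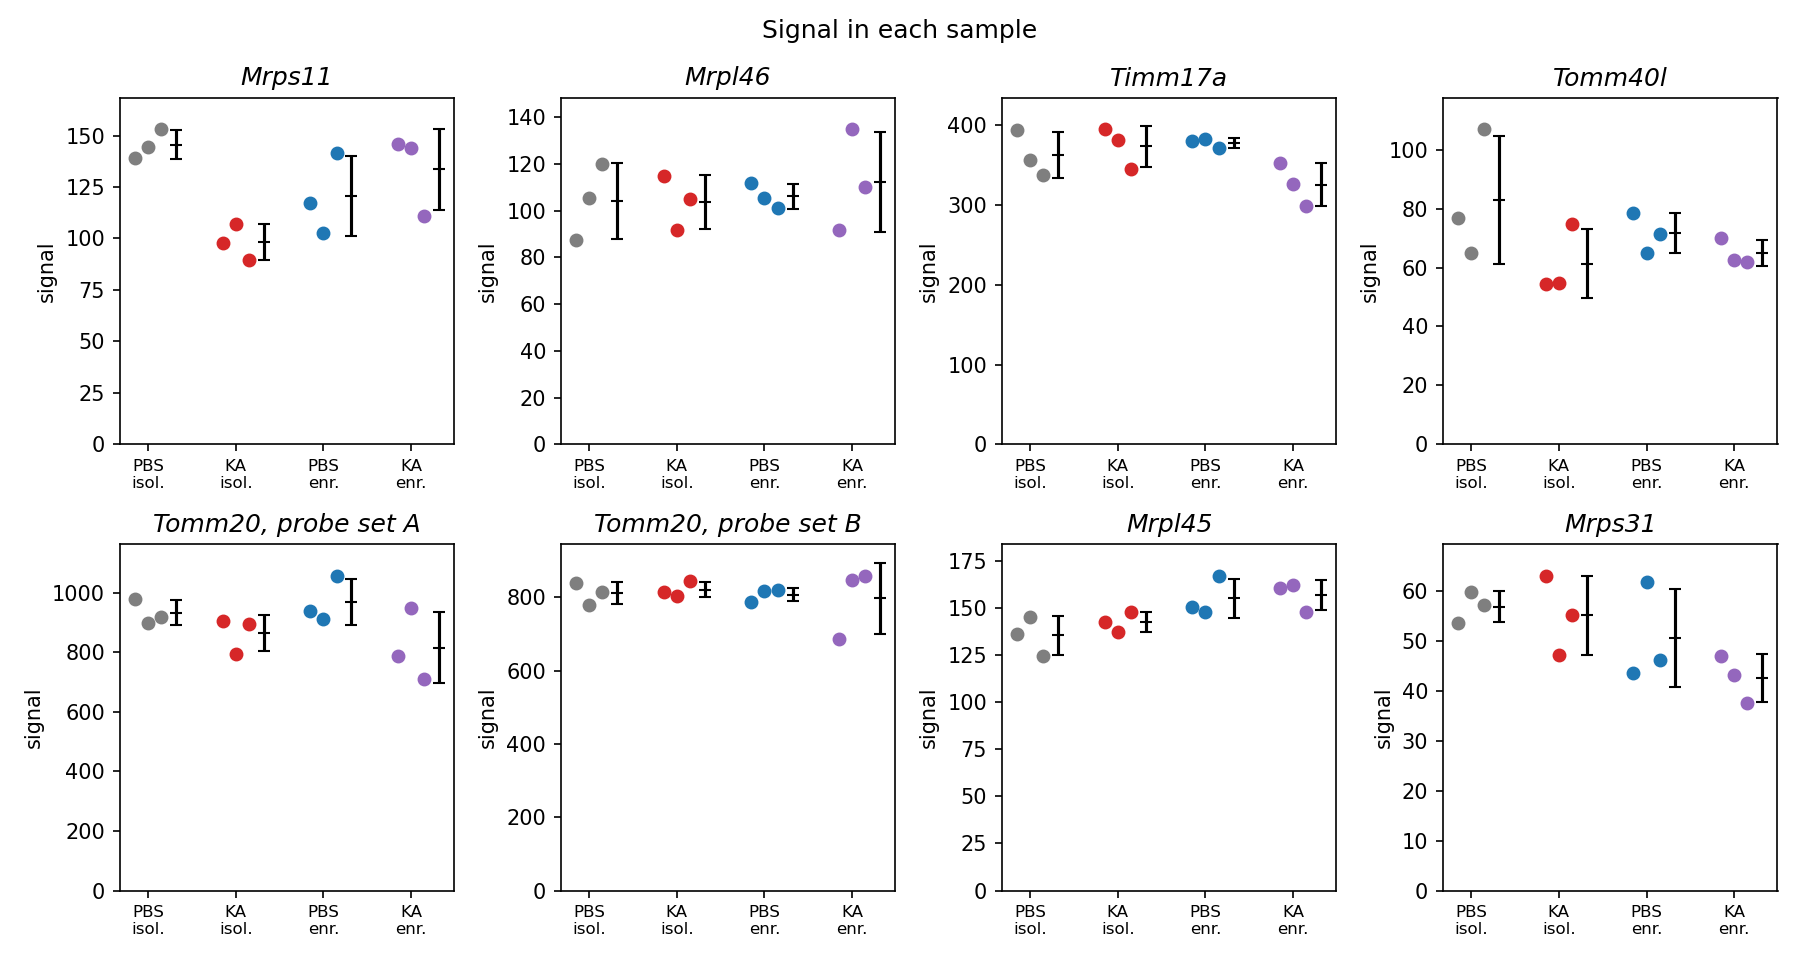
Signal (linear axis from 0) of 7 genes in each of 12 samples, with points for samples and black bars for the mean and SD of the 3 samples of a group. Tomm20 is shown by probe sets A and B. For Mrps11 the 3 KA_isolated samples, 89.6 to 107, lie below the 139 to 153 of PBS_isolated, while its neighbour Mrpl46 overlaps throughout.

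Among the inner membrane and intermembrane space proteins, Timm17a, a subunit of the presequence translocase, had 380, 383 and 371 in PBS_enriched and 352, 326 and 299 in KA_enriched, which did not overlap. Its signal was 394, 357 and 337 in PBS_isolated and 395, 382 and 345 in KA_isolated. KA minus PBS in enriched rats was -0.21 on the log2 scale (SE 0.08, adjusted p = 0.932), and -0.15 without KA_enriched replicate 3. Timm13, another small chaperone, had 561, 561 and 592 in PBS_enriched and 518, 466 and 554 in KA_enriched, which did not overlap. Its difference was -0.15 (SE 0.08) and that of Timm10b 0.17 (SE 0.09), both with an adjusted p of 0.932. Without KA_enriched replicate 2 they were -0.09 and 0.10.

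As a class, 11 of the 13 tested Timm probe sets were lower after KA in enriched rats, with a median of -0.06, against 4887 of all 9520 and a median of -0.00. For the interaction 11 of 13 were below 0, with a median of -0.08, against 4777 of all 9520. None passed the threshold. The median deviation of the Timm probe sets was -0.02, -0.03 and -0.03 in the KA_enriched samples, 0.02 to 0.05 in PBS_enriched, -0.01 to 0.06 in PBS_isolated and -0.01 to 0.05 in KA_isolated. The number of Timm probe sets lower after KA in enriched rats was 9 of 13 without KA_enriched replicate 3, the array with the largest 3′ to 5′ ratio, with a median of -0.04, and 11 with the beta-actin ratio as a covariate. With only the 40% of probe sets of highest mean it was 8 of the 10 left. The class medians for Mrpl, Mrps and Tomm in that comparison were -0.03, 0.02 and 0.00, and those of Mrps and Tomm changed sign in some settings.

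**Figure D4:**
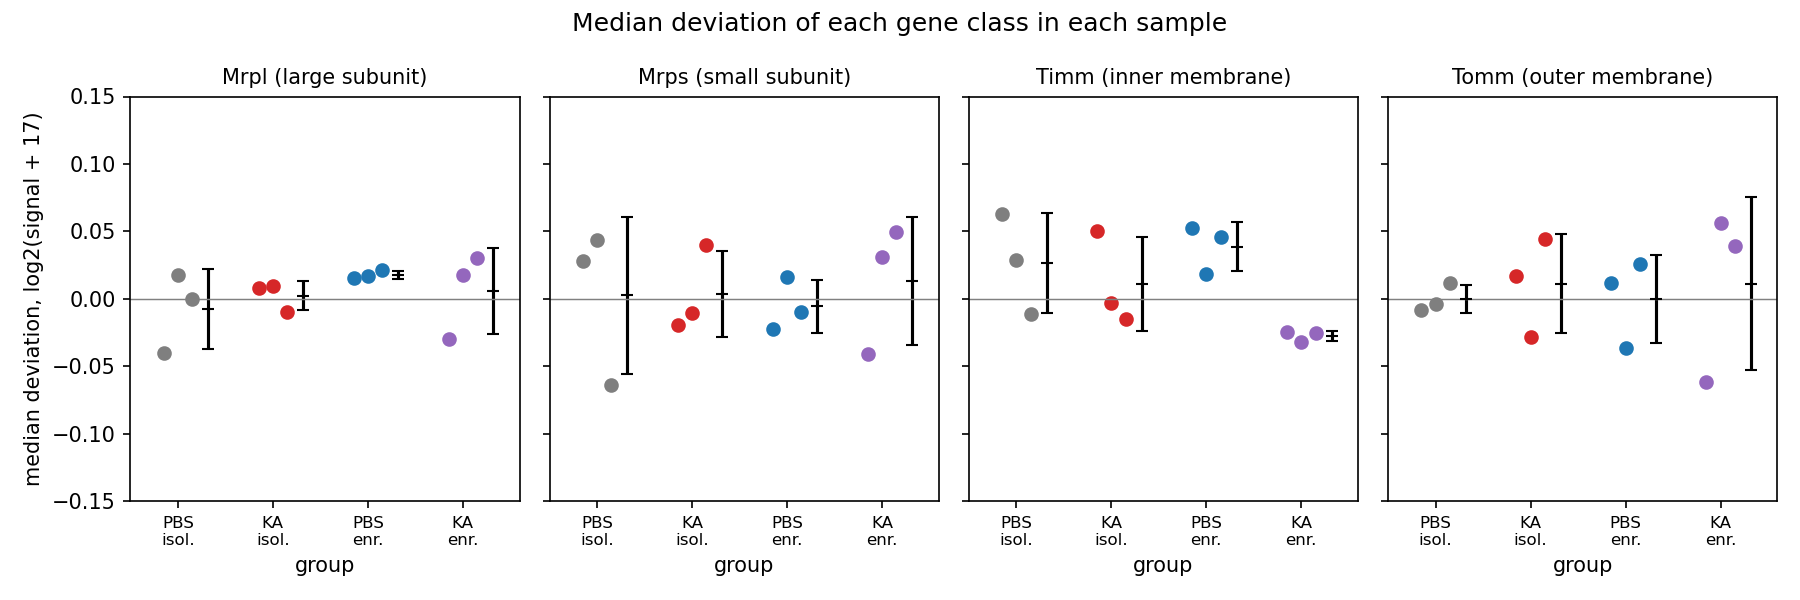
Median deviation of the tested probe sets of each class from their own means, in log2(signal + 17), with points for the 12 samples and black bars for the mean and SD of each group of 3. The axis spans a narrow range. The Timm values of KA_enriched, -0.03 to -0.02, lie below those of the other groups, and in the other classes KA_enriched overlaps each other group.

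Where a gene had several probe sets, their differences often had unlike signs. Of 12 such genes, 9 had more than 1 in the test, and over the 4 comparisons within a housing or treatment their probe sets agreed in sign in 14 of 36 cases. For 0 of the 9 did they agree in all 4 comparisons. Many of these differences were near 0, where the sign is arbitrary. The share over all genes with several probe sets was not computed, so the count is a description. Mrpl52 was -0.10 by 1 probe set and 0.36 by the other for KA in enriched rats, Mrpl57 -0.05 and 0.23, and Mrpl40 -0.01 and -0.24. In the interaction the Mrpl52 probe set of higher mean signal gave -0.28 (SE 0.12, adjusted p = 0.951). Mrpl50 was 0.02 and -0.29 for KA in isolated rats, and Timm22, the channel for carrier proteins, 0.12 and -0.10. Mrpl37, Mrpl49 and Mrpl51 had log2 differences of at most 0.18 in size in these 4 comparisons.

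**Figure D5:**
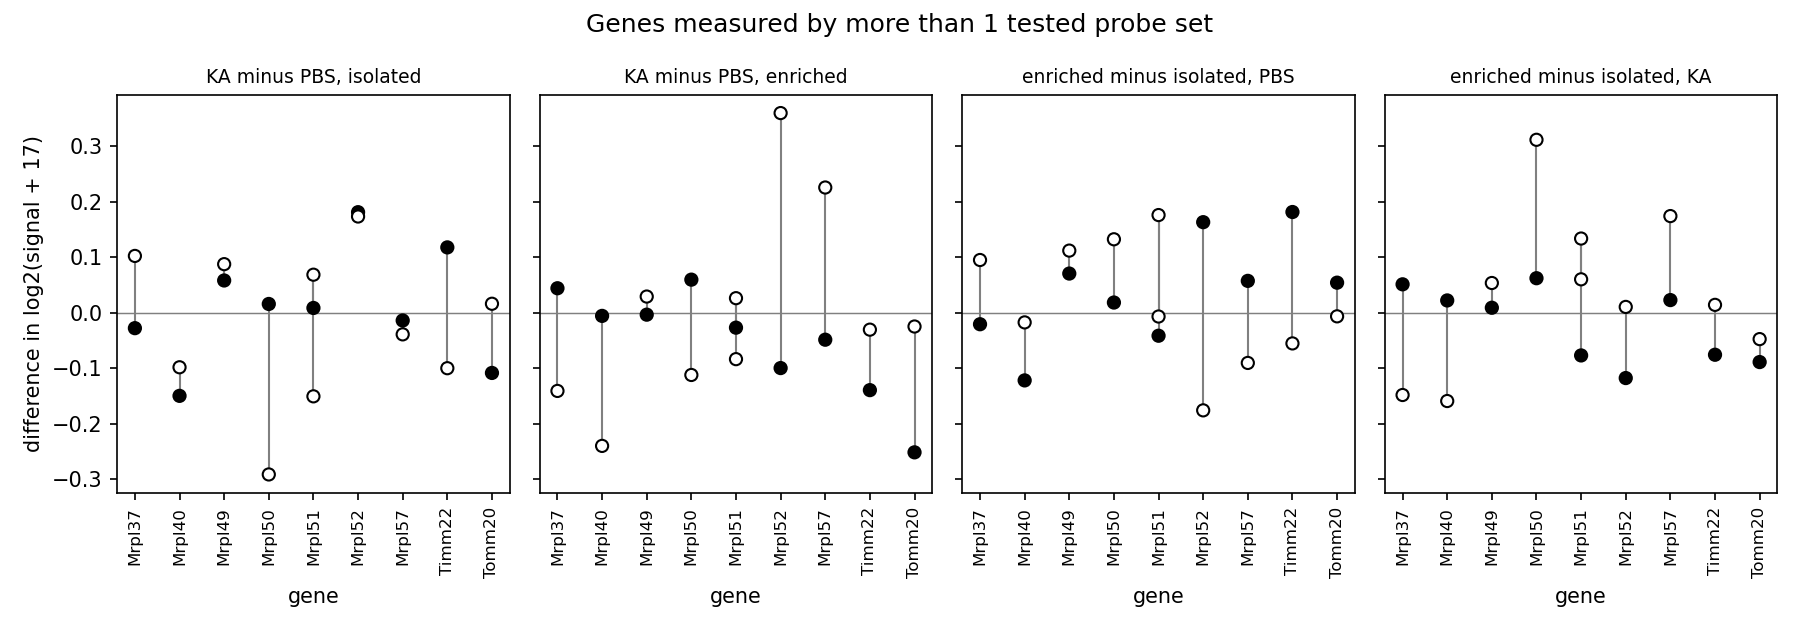
Differences in log2(signal + 17) for the 9 genes with more than 1 tested probe set, in 4 comparisons. Filled circles are the probe set of highest mean signal, open circles the others, and lines join the probe sets of a gene. Joined circles often lie on opposite sides of 0, as for Mrpl52 in enriched rats at -0.10 and 0.36.

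The members did not vary as 1 unit within groups. Across pairs of the 102 probe sets, the median Pearson correlation of deviations from group means over the 12 samples was 0.03, and the lower and upper quartiles were -0.25 and 0.31. These points share arrays and their scaling, and the value is a description.

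Genes that work beside these were taken from 5 lists: import partners without the prefixes (24 of 30 genes tested), ribosomal subunits named otherwise (5 of 5), translation factors and ribosome assembly (14 of 41), mitochondrial DNA upkeep and transcription (12 of 19), and regulators of mitochondrial biogenesis (6 of 14). In all 7 comparisons 0 genes of any list passed (limma, adjusted p under 0.05). At an unadjusted p under 0.05 the 5 lists held 0 genes for KA in isolated rats (background 4.31%) and 2 lower in enriched rats (background 4.98%): Oxa1l, the insertase for proteins made inside mitochondria, and Nsun4, a methyltransferase of the ribosomal RNA. They held 2 lower for KA over both housings (Aurkaip1 and Esrra; background 4.31%) and 2 lower for housing after PBS (Mtx2 and Pnpt1; background 4.21%). For housing after KA there were 6, with Rmnd1 and Prkaa2 higher and Oxa1l, Gadd45gip1, Kars1 and Pnpt1 lower (background 7.02%). For housing over both treatments there were 5, with Mipep, Rmnd1, Supv3l1 and Prkaa2 higher and Pnpt1 lower (background 5.64%), and for the interaction 1, Nsun4, lower (background 4.97%). Oxa1l was -0.24 on the log2 scale for KA in enriched rats (SE 0.10, adjusted p = 0.932), and -0.27 for housing after KA.
Pnpt1, an RNA-processing enzyme of the mitochondria, was -0.29 for housing over both treatments (SE 0.07, adjusted p = 0.516). Its signal was 68.2, 82.3 and 70.2 in PBS_isolated and 73.9, 76.3 and 67.5 in KA_isolated, against 59.1, 58.9 and 51.3 in PBS_enriched and 64.4, 59.8 and 47.4 in KA_enriched. The isolated and enriched samples did not overlap (background 0.116% downward). Pnpt1 was named as the lower gene of smallest p in its list. Rmnd1, which in human cells anchors ribosomes at the inner membrane, was 0.17 (SE 0.05, adjusted p = 0.832) in that comparison. Prkaa2, a catalytic subunit of the energy sensor AMPK, was 0.38 for housing after KA (SE 0.12, adjusted p = 0.622), with 110, 120.5 and 150 in KA_enriched against 110, 89.8 and 81.3 in KA_isolated. Those 2 groups did not overlap by a narrow margin (background 6.28% upward).

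The 5 ribosomal subunits without the prefix (Dap3, Ptcd3, Aurkaip1, Chchd1 and Gadd45gip1) were all lower after KA in enriched rats, with a median of -0.14 and 0 past an unadjusted p of 0.05. Of all 9520 tested probe sets 4887 were lower, with a median of -0.00. The median deviation of the 5 was -0.02, -0.20 and -0.12 in the KA_enriched samples and -0.02 to 0.04 in PBS_enriched. These groups overlapped, as KA_enriched replicate 1 (-0.0157) lay above the lowest PBS_enriched sample (-0.0193). This was 1 comparison of 7 for 1 list of 5. The -0.12 is that of KA_enriched replicate 3, the array with the largest 3′ to 5′ ratio. Aurkaip1 was -0.20 over both housings (SE 0.07, adjusted p = 0.996) and Gadd45gip1 -0.24 for housing after KA (SE 0.10, adjusted p = 0.663). Esrra, a nuclear receptor that drives mitochondrial genes, was -0.25 for KA over both housings (SE 0.09, adjusted p = 0.996), and Tfam, which packages mitochondrial DNA, 0.07 (SE 0.06).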

How the data were processed

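RNA of 12 pools of rat hippocampus was measured on single-colour arrays. The values the authors deposited are probe set signals, array intensity on a linear scale. They summarise several probes each (software not given in the sources used here). All arrays had the same mean, 150.03, once 2% of probe sets at either end were trimmed. Array medians were 70.1 to 74.1, a ratio of 1.06, below the preset limit of 1.25, and no further normalization was applied. Precision is limited by how many arrays there are.

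Of 15923 probe sets, 57 controls were dropped. Members were named from the platform annotation, where 12783 of the other probe sets have 1 symbol and 312 have several. Values were put on the log2(signal + 17) scale, and the 60% of highest mean, 9520, were tested with limma's lmFit and eBayes (version 3.58.1, R 4.3.3; 1 mean for each of 4 groups, 13.1 degrees of freedom, two-sided, Benjamini-Hochberg over 9520). P-values were never adjusted over the members alone. The steps were tested on simulated data.

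Named genes were, for each comparison, the 3 higher and 3 lower members of smallest p, the 2 of highest mean signal per class, Mrps11, Tomm20, Tomm40, Timm44, Timm50 and Mrpl12, all genes with several tested probe sets, and for the companion lists the higher and lower gene of smallest p (a selection of these is printed). A single value per gene is that of the probe set of highest mean. Mrpl46 and other genes picked for position or spread were added after their values were seen. Members and lists were chosen with earlier results of these data known. The alternatives tried were other scalings, pseudocount, filters, array weights, fits with fewer groups, a replicate block, an RNA integrity covariate and leaving out each sample.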

Additional observations from a re-analysis of the deposited data

How the results depend on the processing

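With 3 pools in a group, small differences in single genes are beyond these arrays. The count of mitochondrial ribosome and import probe sets called was 0 in all 7 comparisons and in all 144 counts made under the alternatives, 20 or 21 settings for each comparison. The 42 differences of smallest p (the 3 higher and 3 lower genes of each comparison) kept their sign in all 853 values under the alternatives. They were picked from the same samples that the alternatives refit, so kept signs were likely from the outset and are no independent support. Genes named for signal, role or several probe sets were not run there. Replicate numbers are shared across groups in the titles, and samples of the same number were at most weakly correlated. Over 18 same-numbered pairs the deviations from group means correlated by -0.07 to 0.20, with a mean of 0.05. The mean for different numbers was -0.02, which largely follows from the first because deviations sum to 0 within a group. No pair of groups had all its correlations over 0.1, but a weak pairing by number was not excluded. With the replicate block, 0 members were called in each comparison and the medians were as without it (0.01 for KA in isolated rats and -0.02 in enriched rats). The spread of the members' median between samples of a group was 0.02 (SD), and 7 of 151 alternative medians moved by more than that. Scaling each array to the same median gave -0.0408 for housing after KA and -0.0255 for housing over both treatments, and the beta-actin covariate gave 0.00821 for housing after PBS. Leaving out 1 sample gave -0.0357 to 0.0136 for housing after KA, 0.00844 to 0.0381 for housing after PBS, -0.0427 to -0.0148 for the interaction and -0.0266 to -0.000759 for KA in enriched rats. The cause was not tested. The medians near 0 also changed sign in some settings. For KA over both housings it was above 0 with arrays scaled to the same median and 0.00897 without KA_enriched replicate 1. For KA in isolated rats it became -0.00314 without PBS_isolated replicate 3. For housing after KA the 0.0136 above was without KA_enriched replicate 1. For housing over both treatments it was above 0 with the 40% of highest mean and without PBS_isolated replicate 2, KA_isolated replicate 3 or KA_enriched replicate 1, at most 0.00827.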
